A study of Mus musculus with 6 samples.

Results

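A set of 10 solute carriers that bring amino acids into cells, or exchange them across the plasma membrane, were followed in mouse pro-B cells, the bone marrow stage at which B lineage cells rearrange their immunoglobulin heavy chain genes. They were chosen by name, Slc7a5, Slc3a2, Slc7a1, Slc7a3, Slc7a11, Slc1a5, Slc1a4, Slc38a1, Slc38a2 and Slc6a9, with their values in these libraries already known, and they are 10 of 54752 gene identifiers in each table. Messenger RNA was sequenced in sorted pro-B cells of adult C57BL/6 mice. Libraries came from 3 Skiv2l-deleted mice (genotype Skiv2lfl/fl-Cd79a-Cre) and 3 control mice (Skiv2lfl/fl), with each mouse sequenced once. Both groups carry floxed alleles of Skiv2l, which encodes the helicase of the SKI complex, a partner of the cytosolic RNA exosome. Cd79a-Cre acts in B lineage cells from early stages on. The labels name it in the Skiv2l-deleted mice alone, so presence of Cre and loss of Skiv2l cannot be told apart.

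Amino acid transporters set which amino acids a cell can take up, and rapidly dividing lymphoid cells rely on them for protein synthesis, nucleotide synthesis and the supply of glutathione. Many are exchangers, which let one amino acid in against another, so that uptake of leucine through one carrier can depend on glutamine brought in by another. Several of their genes are known targets of ATF4, the transcription factor of the integrated stress response, which binds together with C/EBP proteins at a composite element, the C/EBP-ATF response element.

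A pair of the transporters, Slc1a4 and Slc7a11, carry the core of that element close to their start site, and their promoters are shown because one gene differed widely between the groups and the other did not. The motif searched was TGATGNAA on both strands, with no match overlapping another, in windows of 250 bases before to 50 bases after the annotated start. RefSeq sequence (GRCm38.p6) was matched by symbol for 6 of the 10 genes, Slc6a9, Slc3a2, Slc7a11, Slc7a1, Slc38a2 and Slc1a4, with 9 windows in all. Both windows lie on the minus strand and are written 5′ to 3′ along the gene, with the matches in capitals.
Slc1a4, chr11:20332664-20332963: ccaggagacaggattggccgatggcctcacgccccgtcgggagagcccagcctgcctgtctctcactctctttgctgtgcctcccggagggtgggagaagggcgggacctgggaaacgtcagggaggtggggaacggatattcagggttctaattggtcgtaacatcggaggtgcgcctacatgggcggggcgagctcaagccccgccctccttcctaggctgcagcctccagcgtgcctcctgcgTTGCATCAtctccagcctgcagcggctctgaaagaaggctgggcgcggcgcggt
Slc7a11, chr3:50443564-50443863: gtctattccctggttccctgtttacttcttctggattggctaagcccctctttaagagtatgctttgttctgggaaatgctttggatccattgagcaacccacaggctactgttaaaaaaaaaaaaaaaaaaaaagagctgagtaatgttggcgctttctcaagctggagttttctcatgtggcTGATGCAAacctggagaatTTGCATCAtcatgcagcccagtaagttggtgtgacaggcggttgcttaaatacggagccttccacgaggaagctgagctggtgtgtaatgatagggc
The Slc1a4 match runs from base -4 to base 4 around the start and is the reverse complement of the motif. The Slc7a11 window holds 2 matches, one on each strand, from -66 to -59 and from -47 to -40. Of 27025 genes with such a window, 4.51% held the motif, against 2 of the 6 matched transporters. Of the 8723 with a window among the genes tested below, as all 10 transporters were, 2.65% held it. Since several transporter genes are known targets of ATF4, these shares carry no test. Of all 32851 windows, 23 held 2 or more matches. The remaining genes of the 10, and sequence outside the windows, were not searched. The sequences matched here are letters in a window and are not shown to be bound in these cells.

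Values are FPKM, a level scaled to transcript length and library size, as deposited. Between 1.74 and 2.40 Gb of aligned bases stood behind each library. Differences are log2 fold changes, Skiv2l-deleted minus control, of FPKM + 1, with their SE from limma fitted to the 13539 genes that reached 1 FPKM in 3 libraries or more. The pseudocount of 1 makes the differences of low genes smaller than they are on the FPKM scale. In bulk samples, fewer cells of a type and less RNA per cell cannot be told apart. Skiv2l was lower in each Skiv2l-deleted library than in each control, at 9.53, 16.1 and 10.9 FPKM in Skiv2l-deleted 1, 2 and 3, against 25.4, 20.2 and 46.3 FPKM in control 1, 2 and 3 (log2 fold change -1.21 ± 0.32, limma adjusted p = 0.063). Cd79a, the gene that names the Cre driver, fell to 367, 368 and 441 FPKM in Skiv2l-deleted libraries, against 726, 640 and 739 FPKM in controls (limma adjusted p = 0.0123), and lost its call without control 1 or Skiv2l-deleted 1 (highest limma adjusted p = 0.0702). All 11 pro-B markers looked at were above 1 FPKM in each library, and 6 of them rose, among them the terminal transferase gene Dntt and the surrogate light chain gene Igll1.

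A pair of libraries stood apart. The summed FPKM of 11 myeloid markers was 368, 2841 and 87.1 in Skiv2l-deleted 1, 2 and 3, against 137, 458 and 1579 in control 1, 2 and 3. All 11 passed 1 FPKM in at least 3 libraries, and the myeloperoxidase gene Mpo stood at 641 FPKM in Skiv2l-deleted 2 and 343 FPKM in control 3. It was at 4.30 to 8.99 FPKM in the other 4 libraries. Elane, Ctsg, Prtn3, Lyz2, Csf1r and Itgam were likewise highest in Skiv2l-deleted 2 and control 3. In Skiv2l-deleted 1 and control 2, however, S100a9 stood at 165 and 217 FPKM. S100a8 was at 100 and 129 FPKM there, and Camp at 21.6 and 26.8 FPKM. In Skiv2l-deleted 2 and control 3, S100a9 was at 243 and 177 FPKM and S100a8 at 207 and 153 FPKM. Camp was at 38.5 and 29.0 FPKM in that pair. Ltf was highest in Skiv2l-deleted 1 and control 2, at 15.8 and 18.5 FPKM, against 2.74 and 2.84 FPKM in Skiv2l-deleted 2 and control 3. The other 4 libraries are thus not free of myeloid signal. The 11 erythroid markers summed to 58.5, 283 and 57.3 FPKM in Skiv2l-deleted libraries and to 44.5, 41.7 and 53.1 FPKM in controls. The 7 plasma cell markers summed to 127 to 152 FPKM in Skiv2l-deleted and 422 to 619 FPKM in control libraries. In this list Igha stood at 0 to 0.302 FPKM in Skiv2l-deleted libraries, against 164 to 380 FPKM in controls. Of the 7, 3 were called lower by limma, where 3.87% of all genes tested were, but not all of the list fell. Xbp1 was at 42.6, 75.9 and 44.8 FPKM in Skiv2l-deleted and 36.4, 39.0 and 53.5 FPKM in control libraries (limma adjusted p = 0.51). Prdm1 was below 1 FPKM in every library, with overlapping groups. The 9 T and NK cell markers summed to 12.5 to 17.1 FPKM in Skiv2l-deleted and 3.90 to 5.49 FPKM in control libraries, with Cd3e at 0.106 FPKM in Skiv2l-deleted 2 and listed at 0 in the others. Most of that sum was Klrb1c, at 12.0, 12.4 and 9.15 FPKM in Skiv2l-deleted and 3.61, 2.43 and 2.64 FPKM in control libraries. The 6 megakaryocyte and stromal markers summed to 36.1 to 48.1 FPKM in Skiv2l-deleted and 45.9 to 56.6 FPKM in control libraries. Nearly all of that sum was Pecam1, at 35.4 to 46.0 FPKM in Skiv2l-deleted and 44.8 to 56.1 FPKM in control libraries. The others on that list were below 1 FPKM in every library. The part of these other cells in the transporter values was not tested. Values without Skiv2l-deleted 2 and control 3 are given beside the results below.

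**Figure D1:**
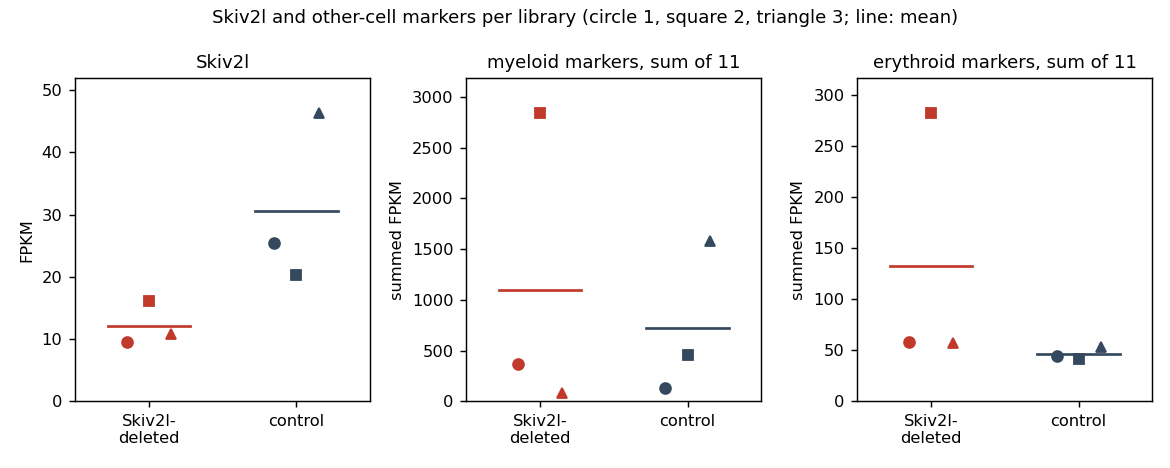
Skiv2l in FPKM (left) and the summed FPKM of 11 myeloid (middle) and 11 erythroid markers (right), for the Skiv2l-deleted and the control libraries, with 1 symbol per replicate number and a line at the group mean. Skiv2l-deleted 2 (square) has the most Skiv2l of its group, 16.1 FPKM, and the most myeloid signal, 2841 FPKM, and control 3 (triangle) has 1579 FPKM of myeloid signal.

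Across the 10 transporters, Slc7a3, Slc6a9, Slc1a4, Slc7a5, Slc7a1 and Slc3a2 rose in Skiv2l-deleted pro-B cells, Slc1a5 fell, and Slc38a1, Slc38a2 and Slc7a11 did not pass the threshold of a limma adjusted p below 0.05 over all genes. That made 7 of 10 called, where 8.84% of all genes tested were. The groups did not overlap in 9 of the 10, 8 with the Skiv2l-deleted libraries above and 1 with them below, where 32.2% of all genes tested did not overlap (19.9% with the Skiv2l-deleted libraries above and 12.3% below). Since the same contrast led to the choice of these genes, the counts describe them and carry no test. Slc7a3, Slc6a9 and Slc1a4 were below 1 FPKM in every control and passed the filter through the Skiv2l-deleted libraries alone.

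The heterodimer of Slc7a5 and Slc3a2 is the main importer of leucine and other large neutral amino acids in activated lymphocytes. Slc7a5 (ENSMUSG00000040010.10, chromosome 8, 121881150 to 121907694) encodes LAT1, its transporting subunit. Its level was 67.0, 39.4 and 64.7 FPKM in Skiv2l-deleted 1, 2 and 3, against 21.6, 20.6 and 19.6 FPKM in control 1, 2 and 3. The controls lay within a narrow range, and even the lowest Skiv2l-deleted library was well above them. The mean was 57.0 ± 15.3 FPKM in Skiv2l-deleted and 20.6 ± 1.0 FPKM in control libraries (SD, n = 3 each), 2.77-fold higher in Skiv2l-deleted cells, with a log2 fold change of 1.39 ± 0.21.

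Slc3a2 (ENSMUSG00000010095.13, chromosome 19, 8706882 to 8723369) encodes the CD98 heavy chain, which carries LAT1 and several other light chains to the cell surface. It stood at 73.5, 63.9 and 79.6 FPKM in Skiv2l-deleted and 37.3, 43.7 and 49.9 FPKM in control libraries. The groups were separate, with control 3 the nearest to the Skiv2l-deleted libraries. Means of 72.3 ± 7.92 FPKM in Skiv2l-deleted and 43.6 ± 6.30 FPKM in control libraries (SD, n = 3 each) gave a log2 fold change of 0.72 ± 0.14. The log2 fold change was larger for the light chain than for the heavy chain. The ratio of Slc7a5 to Slc3a2 FPKM was 0.911, 0.618 and 0.814 in Skiv2l-deleted libraries, against 0.579, 0.471 and 0.392 in controls.

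The third member that pairs with the CD98 heavy chain, Slc7a11 (ENSMUSG00000027737.10, chromosome 3, 49892526 to 50443614), encodes xCT, which imports cystine against glutamate and so feeds glutathione synthesis. Its level was 3.81, 3.03 and 3.69 FPKM in Skiv2l-deleted and 3.92, 4.63 and 3.81 FPKM in control libraries. It was the only one of the 10 genes in which the groups overlapped, and Skiv2l-deleted 1 and control 3 lay side by side. The log2 fold change was -0.18 ± 0.14. Its window is the one above with 2 motif matches, while the single match of Slc1a4 stands at a gene that rose. Nothing about the factor follows from either.

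Cationic amino acids, arginine and lysine, enter through the CAT carriers. The widely expressed CAT1 is the product of Slc7a1 (ENSMUSG00000041313.14, chromosome 5, 148327410 to 148399904), at 24.4, 12.9 and 20.2 FPKM in Skiv2l-deleted and 8.95, 9.94 and 7.62 FPKM in control libraries. Skiv2l-deleted 2 stood only a little above control 2, and the other Skiv2l-deleted libraries were far above. Slc7a1 averaged 19.2 ± 5.84 FPKM in Skiv2l-deleted and 8.84 ± 1.16 FPKM in control libraries (SD, n = 3 each), with a log2 fold change of 1.0 ± 0.23.

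Slc7a3 (ENSMUSG00000031297.14, X chromosome, 101079210 to 101086020) encodes CAT3, a cationic carrier better known from brain. It was at 4.49, 3.31 and 4.51 FPKM in Skiv2l-deleted libraries, against 0.162, 0.153 and 0.308 FPKM in controls. All controls were far below the Skiv2l-deleted libraries, and the log2 fold change of 2.07 ± 0.16 was the largest of the 10 on this scale. With a pseudocount of 0.1 FPKM, or with TPM, that of Slc6a9 was larger (4.35 against 3.79 for Slc7a3, and 2.68 against 2.67). The mean was 4.10 ± 0.68 FPKM in Skiv2l-deleted and 0.208 ± 0.0867 FPKM in control libraries (SD, n = 3 each), a ratio of 19.8. Slc7a1 remained the more abundant of the pair, and Slc7a3 reached 0.184, 0.257 and 0.224 of the Slc7a1 level in Skiv2l-deleted libraries, against 0.0181, 0.0154 and 0.0404 in controls. Together they summed to 23.3 ± 6.47 FPKM in Skiv2l-deleted and 9.04 ± 1.08 FPKM in control libraries (SD, n = 3 each).

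The neutral amino acid exchangers of the SLC1 family went in opposite directions. Slc1a5 (ENSMUSG00000001918.17, chromosome 7, 16781340 to 16798274) encodes ASCT2, a major entry route for glutamine. It was the most abundant of the 10 in both groups, above 98.9% of the genes tested in controls. Its level was 178, 244 and 207 FPKM in Skiv2l-deleted and 411, 360 and 460 FPKM in control libraries. No Skiv2l-deleted library came near a control. Slc1a5 averaged 210 ± 32.8 FPKM in Skiv2l-deleted and 410 ± 50.2 FPKM in control libraries (SD, n = 3 each), and the log2 fold change was -0.97 ± 0.15.

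Its paralog Slc1a4 (ENSMUSG00000020142.12, chromosome 11, 20302180 to 20332713) encodes ASCT1, which exchanges serine, alanine, cysteine and threonine. It stood at 4.97, 3.78 and 5.24 FPKM in Skiv2l-deleted and 0.499, 0.679 and 0.614 FPKM in control libraries. The groups were far apart, with means of 4.67 ± 0.78 FPKM in Skiv2l-deleted and 0.597 ± 0.0908 FPKM in control libraries (SD, n = 3 each) and a log2 fold change of 1.82 ± 0.16. On the FPKM scale the fall of Slc1a5 was much larger than the rise of Slc1a4.

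Slc38a1 and Slc38a2 are neighbours on chromosome 15 and encode SNAT1 and SNAT2, sodium-coupled importers of glutamine, alanine and other small neutral amino acids. Slc38a2 (ENSMUSG00000022462.7, 96687392 to 96699730) was at 122, 102 and 122 FPKM in Skiv2l-deleted and 98.9, 97.7 and 77.3 FPKM in control libraries. Slc38a1 (ENSMUSG00000023169.15, 96571418 to 96642913) was at 67.8, 53.3 and 63.3 FPKM in Skiv2l-deleted and 52.8, 46.9 and 36.1 FPKM in control libraries. In both genes the groups did not overlap, but Skiv2l-deleted 2 lay only just above control 1. The log2 fold changes were 0.34 ± 0.14 for Slc38a2 and 0.44 ± 0.17 for Slc38a1, and neither passed the threshold. The ratio of Slc38a2 to Slc38a1 was alike in all libraries, 1.80 to 1.94 in Skiv2l-deleted and 1.87 to 2.14 in control libraries.

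Slc6a9 (ENSMUSG00000028542.17, chromosome 4, 117834506 to 117875198) encodes GLYT1, a sodium- and chloride-coupled glycine importer known from glia and from red cell precursors. It stood at 3.74, 1.86 and 4.81 FPKM in Skiv2l-deleted libraries, against 0.0885 and 0.133 FPKM in control 1 and 2, and was listed at 0 in control 3. The log2 fold change was 2.0 ± 0.27. Its lowest Skiv2l-deleted value was in Skiv2l-deleted 2. Of the erythroid markers, the 4 globin genes stood at 25.8 to 65.6 FPKM in that library and at 0.368 to 2.27 FPKM in Skiv2l-deleted 1 and 3, against 0.338 to 2.38 FPKM in controls. The carbonic anhydrase gene Car2, also on that list, was at 49.3, 59.9 and 52.4 FPKM in Skiv2l-deleted and 34.8, 32.4 and 36.0 FPKM in control libraries (limma adjusted p = 0.0209). The part of erythroid cells in the Slc6a9 values was not tested.

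**Figure D2:**
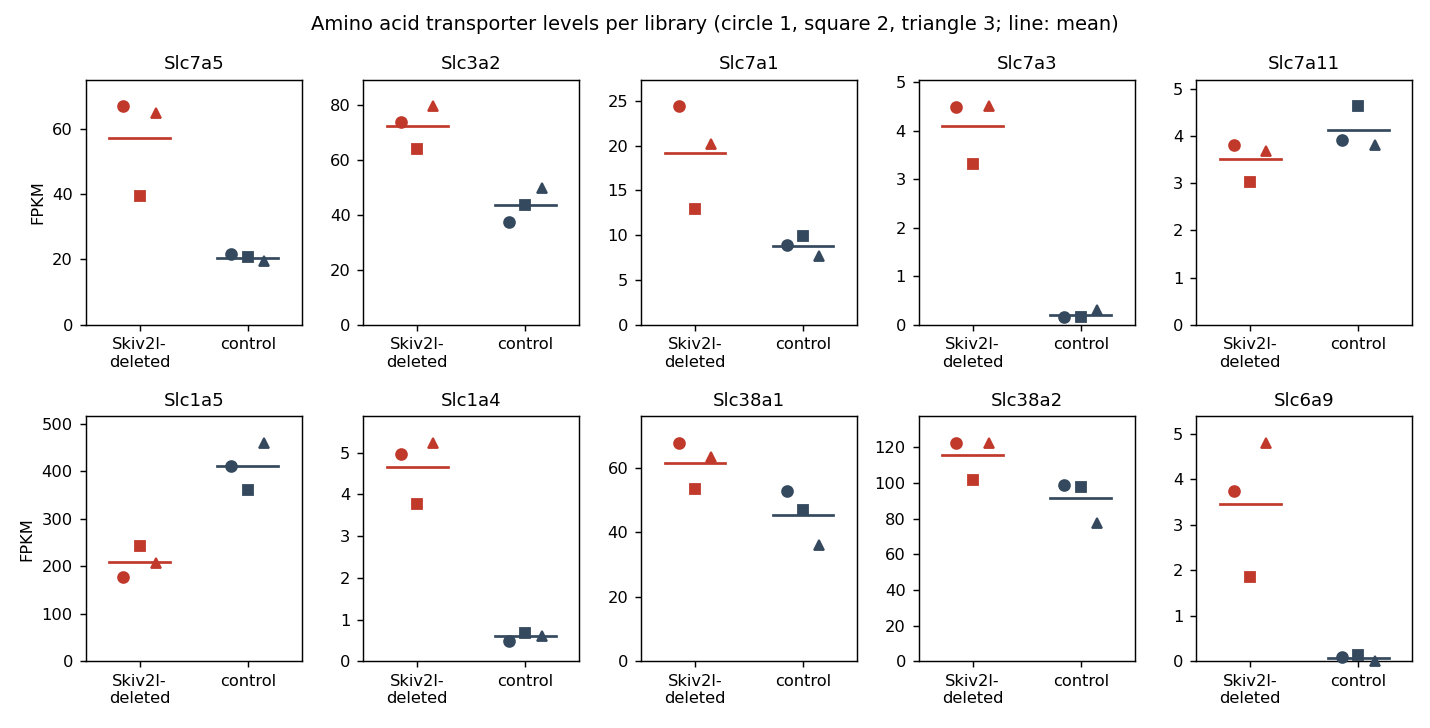
FPKM of the 10 transporters in each Skiv2l-deleted (left) and control (right) library, with 1 symbol per replicate number, a line at the group mean and each axis starting at 0. The Skiv2l-deleted libraries lie above all controls in 8 genes and below them in Slc1a5, and the groups overlap in Slc7a11.

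The order of the levels, which FPKM allows since it is per transcript length, differed in part between the groups. In Skiv2l-deleted libraries it ran Slc1a5, Slc38a2, Slc3a2, Slc38a1, Slc7a5, Slc7a1, Slc1a4, Slc7a3, Slc7a11 and Slc6a9. Slc3a2, Slc38a1 and Slc7a5 overlapped with their neighbours there, as did all of the last 4 genes. In control libraries the order was Slc1a5, Slc38a2, Slc38a1, Slc3a2, Slc7a5, Slc7a1, Slc7a11, Slc1a4, Slc7a3 and Slc6a9, and Slc38a1 and Slc3a2 were the only neighbours that overlapped. Slc1a5 made up 38.2 ± 7.20% of the summed FPKM of the 10 genes in Skiv2l-deleted and 65.5 ± 4.37% in control libraries (SD, n = 3 each). The sum of all 10 was 550, 527 and 575 FPKM in Skiv2l-deleted libraries and 635, 584 and 655 FPKM in controls. Without Slc1a5 the sum was 372, 283 and 368 FPKM in Skiv2l-deleted and 224, 224 and 195 FPKM in control libraries. The total thus lay lower in Skiv2l-deleted cells with Slc1a5 in it and higher without it, and these sums carry no test.

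Within the Skiv2l-deleted group, Skiv2l-deleted 2 was lowest in 9 genes, all but Slc1a5, and the highest library was Skiv2l-deleted 3 in 5 genes and Skiv2l-deleted 1 in 4. Skiv2l-deleted 2 was nearest to the mean of the controls in 9 of the 10 transporters, all but Slc7a11. It was nearest in 49.5% of the 1190 called genes outside the 10. Skiv2l-deleted 2 is also the library with the highest remaining Skiv2l and the most myeloid marker signal of its group, and the part of either in its smaller differences was not tested. Among the controls, control 3 was lowest in 6 genes and highest in Slc7a3, Slc3a2 and Slc1a5.

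**Figure D3:**
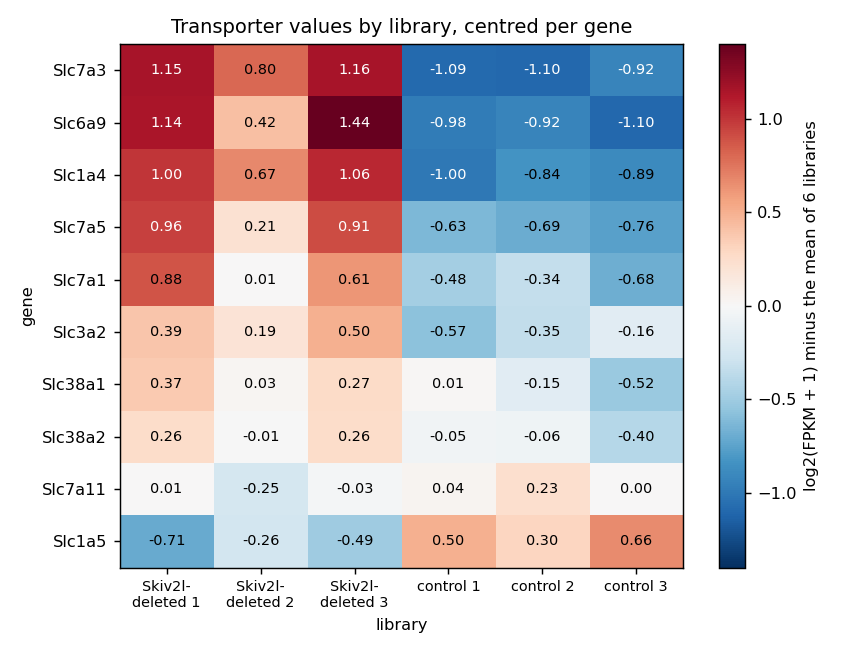
Heat map of log2(FPKM + 1) for the 10 transporters (rows) in the Skiv2l-deleted and control libraries (columns), each gene centred on its mean over the 6 libraries. Skiv2l-deleted 2 is paler than Skiv2l-deleted 1 and 3 in every gene but Slc7a11, where it is at -0.25.

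Without Skiv2l-deleted 2 and control 3, the log2 fold changes were 1.60 for Slc7a5, 0.91 for Slc3a2, 1.15 for Slc7a1 and -1.0 for Slc1a5, all of them called. Slc38a1 (0.39), Slc38a2 (0.31) and Slc7a11 (-0.15) again were not. Slc7a3, Slc6a9 and Slc1a4 then reached 1 FPKM in only 2 libraries and left the test. In Skiv2l-deleted 1 and 3 they averaged 4.50, 4.27 and 5.11 FPKM, against 0.157, 0.111 and 0.589 FPKM in control 1 and 2. The calls depended on single libraries. Without Skiv2l-deleted 1 or without Skiv2l-deleted 3, 0 of the 7 genes still tested were called by limma, with 4 at an unadjusted p under 0.05 in each case. Calls over all genes were then down to 184 of 13286 and 179 of 13263. The log2 fold change of Slc7a5 was then still 1.26 without Skiv2l-deleted 1. Without Skiv2l-deleted 2, 4 of 7 passed, and 4, 5 and 6 of 10 passed without control 1, 2 and 3. Of the individual genes, Slc7a1 missed the threshold when any one library other than Skiv2l-deleted 2 was left out. It also missed it with TPM (limma adjusted p = 0.0699), with median-of-ratios size factors (0.0611) and with immunoglobulin and T cell receptor segment genes left out of the scaling (0.0684), and 6 of the 10 were then called each time. Slc7a5, Slc3a2 and Slc1a5 missed it without Skiv2l-deleted 1 or without Skiv2l-deleted 3. Slc3a2 also missed it without control 1 or 2, and Slc1a5 without control 1. With no filter on low values Slc7a5, Slc7a1, Slc3a2 and Slc1a5 all missed it. With a block for the replicate number Slc7a1, Slc3a2 and Slc1a5 did. Slc7a3, Slc6a9 and Slc1a4 passed without each of the controls, but left the test when any one Skiv2l-deleted library was left out.

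Other amino acid carriers were looked at as 3 lists made by protein family and site in the cell. They were made with earlier results of these data known, from carriers outside the 10. Since the 10 were picked with their values known, the counts in the lists and in the 10 are no test of one against the other. Among 37 other plasma membrane transporters, 7 were tested. In 29 the level was below 1 FPKM in all 6 libraries, and 16 of those were listed at 0 throughout, including the glutamate transporters Slc1a1 and Slc1a2 and the glutamine transporter Slc38a3. Of the 7 tested, 1 rose and 0 fell (4.97% and 3.87% of all genes tested rose and fell), with a median log2 fold change of 0.41 against 0.06 over all genes. With median-of-ratios size factors the balance over all genes turned round, to 564 genes higher and 651 lower, against 673 and 524 in the FPKM as deposited. The one that rose was Slc43a1, which encodes LAT3, another carrier of leucine and other large neutral amino acids that works without a heavy chain. It was at 20.7, 23.2 and 21.6 FPKM in Skiv2l-deleted and 11.2, 9.74 and 13.0 FPKM in control libraries. The groups were well separated, with a log2 fold change of 0.90 ± 0.13 (limma adjusted p = 0.0124). Slc43a1 missed the threshold without Skiv2l-deleted 1, Skiv2l-deleted 3 or control 1 (highest limma adjusted p = 0.0663).

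Its relative Slc43a2, which encodes LAT4, stood at 12.3, 19.4 and 15.5 FPKM in Skiv2l-deleted and 22.4, 19.0 and 17.4 FPKM in control libraries (log2 fold change -0.32 ± 0.18, limma adjusted p = 0.336). The light chains Slc7a6 and Slc7a7 pair with the CD98 heavy chain to exchange cationic for neutral amino acids. Both were above all controls in each Skiv2l-deleted library, as were 19.9% of all genes tested. Slc7a6 was at 25.6, 20.0 and 21.8 FPKM in Skiv2l-deleted and 15.7, 15.7 and 17.3 FPKM in control libraries. Its log2 fold change of 0.44 ± 0.13 did not pass (limma adjusted p = 0.0777), nor did that of Slc7a7, 0.54 ± 0.16 (limma adjusted p = 0.0842). Without Skiv2l-deleted 2 and control 3, Slc7a6 was called as well, at 0.56 (limma adjusted p = 0.0413). The taurine transporter gene Slc6a6 stood at 14.1 to 17.6 FPKM in Skiv2l-deleted and 8.75 to 14.3 FPKM in control libraries.

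Of 13 lysosomal and other intracellular carriers 8 were tested. By limma 0 rose and 0 fell, with 1 at an unadjusted p under 0.05 and a median log2 fold change of -0.08. Of all 13539 genes tested, 4.97% rose and 3.87% fell, and 3463 had an unadjusted p under 0.05. With so few carriers, 0 calls does not set the list apart from all genes. The 8 included Slc38a9, the arginine sensor of the lysosome, in which the groups overlapped. It was at 8.50, 11.3 and 10.1 FPKM in Skiv2l-deleted and 19.9, 9.70 and 15.4 FPKM in control libraries. Slc38a10 and Mfsd12 were the others with the highest levels in the list. Slc38a10 was at 31.3 to 36.0 FPKM in Skiv2l-deleted and 26.4 to 33.5 FPKM in control libraries. Mfsd12, which brings cysteine into lysosomes, was at 7.90 to 9.17 FPKM in Skiv2l-deleted and 5.91 to 6.48 FPKM in control libraries (log2 fold change 0.42 ± 0.12, limma adjusted p = 0.0751).

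Of 12 mitochondrial amino acid carriers 11 were tested. By limma 0 rose and 0 fell, with 2 at an unadjusted p under 0.05 and a median log2 fold change of 0.13. Over all genes tested 4.97% rose and 3.87% fell, and 3463 of 13539 had an unadjusted p under 0.05. In a list of this size, 0 calls does not set the carriers apart from all genes. The serine carrier gene Sfxn1 was at 35.7 to 46.3 FPKM in Skiv2l-deleted and 32.6 to 39.0 FPKM in control libraries. The glutamate carrier gene Slc25a22 stood at 17.8 to 24.3 FPKM in Skiv2l-deleted and 17.0 to 23.4 FPKM in control libraries. The third by mean level over all 6 libraries, the aspartate-glutamate carrier gene Slc25a12, stood at 11.8 to 15.9 FPKM in Skiv2l-deleted and 5.52 to 12.9 FPKM in control libraries. Slc25a18, which encodes a further glutamate carrier, was at 0.511, 0.628 and 0.646 FPKM in Skiv2l-deleted and 2.17, 1.16 and 6.23 FPKM in control libraries. Each Skiv2l-deleted library was below each control, as in 12.3% of all genes tested. The controls were widely spread, and the log2 fold change of -1.20 ± 0.41 did not pass (limma adjusted p = 0.122). Across the 3 lists, 1 of 26 tested genes was called, where 8.84% of all genes tested were. Among 128 tested Slc genes outside all of these lists, 6 rose (4.69%) and 5 fell (3.91%), 8.59% in all.

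**Figure D4:**
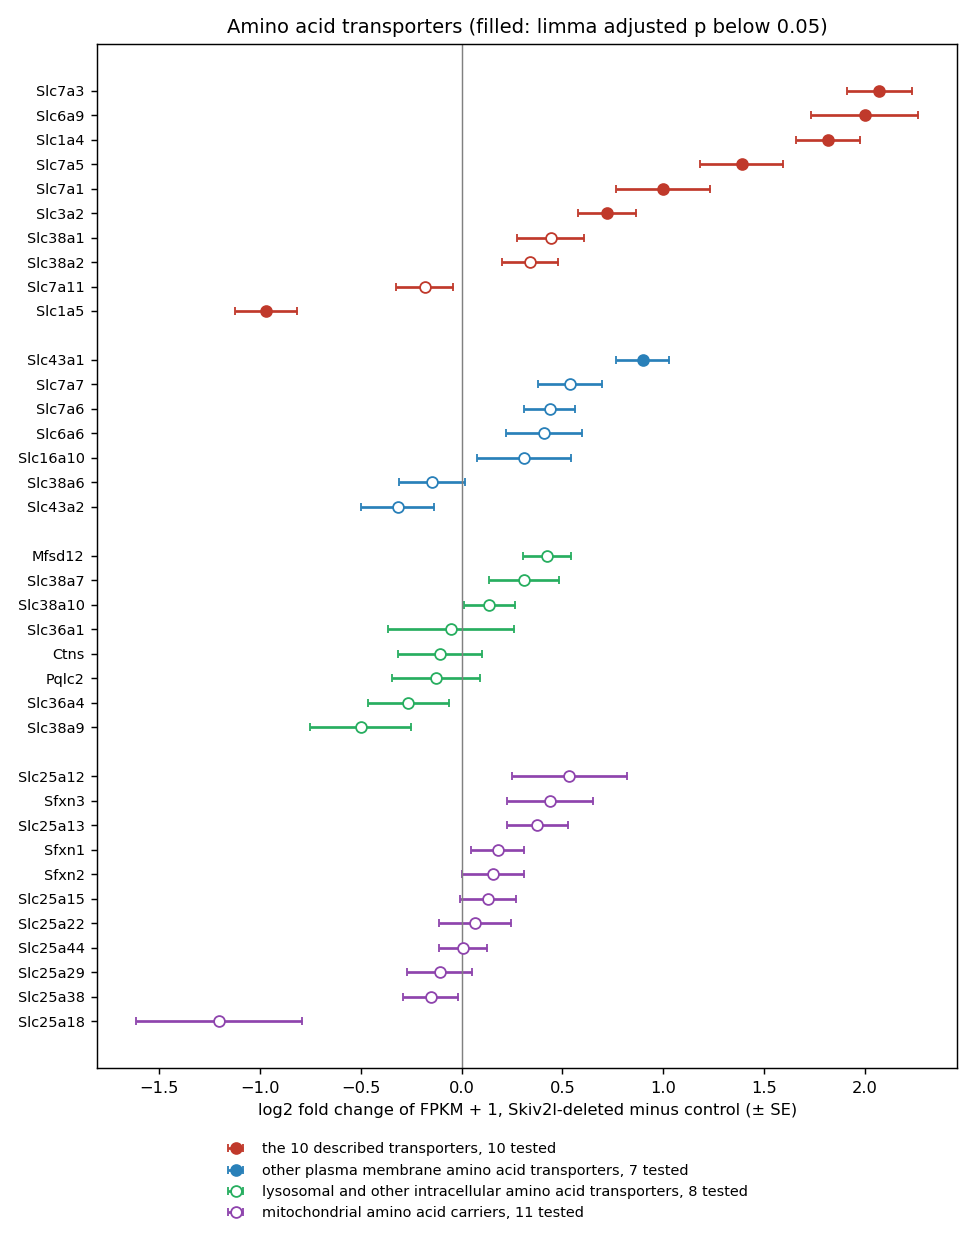
Log2 fold change of FPKM + 1, Skiv2l-deleted minus control, with SE, for the 10 described transporters and the 26 tested genes of 3 further lists. Filled points have a limma adjusted p below 0.05, which 7 of the 10 and Slc43a1 alone of the other 26 have. The 10 were chosen with their values known, so these counts are no test of one against the other.

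The genes most like the 3 transporters with the largest differences were sought among all genes tested, by the root-mean-square difference of centred log2(FPKM + 1) values over the 6 libraries. Centring on all 6 keeps the group difference by which the 3 were picked. Genes with a like log2 fold change, here 1.60 to 2.20, therefore come out near, and the nearness is no separate support. Like the 3, Chac1 was below 1 FPKM in every control. Nearest to Slc7a3 were Chac1, Slc1a4 and Pycr1, at 0.0811, 0.147 and 0.156 log2 units. Chac1, which encodes a glutathione-degrading enzyme, averaged 4.09 ± 1.01 FPKM in Skiv2l-deleted and 0.162 ± 0.038 FPKM in control libraries (SD, n = 3 each). Pycr1, which encodes an enzyme of proline synthesis, averaged 6.63 ± 0.86 FPKM in Skiv2l-deleted and 1.13 ± 0.31 FPKM in control libraries. Nearest to Slc6a9 were Chac1 (0.157), the endocytic gene Ehd3 (0.161) and Slc1a4 (0.217). Nearest to Slc1a4 were Kctd17 (0.0878), the branched-chain aminotransferase gene Bcat1 (0.12) and the alanine aminotransferase gene Gpt2 (0.13). Bcat1 was at 59.9 ± 8.63 FPKM in Skiv2l-deleted and 19.0 ± 1.73 FPKM in control libraries (SD, n = 3 each).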

How the data were processed

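For each mouse the authors deposited 1 table of genes with FPKM, TPM and coverage (mean read depth per base), per the file headers. The libraries were strand-specific mRNA libraries from column-purified RNA, per the labels' protocols, and the submitters' processing notes name GRCm38. Which aligner and quantification tool were run, and whether strand was used, the sources used here do not say. Lines that repeated a gene identifier (7 to 9 identifiers per table) were summed. No read counts are held, so no count model was used. Aligned bases per library follow from the ratio of FPKM to coverage in single-transcript genes.

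FPKM was tested as log2(FPKM + 1) with limma 3.58.1 in R 4.3.3 (lmFit, eBayes with trend), genotype alone, for genes that reached 1 FPKM in 3 libraries or more, with Benjamini-Hochberg adjustment over all 13539 genes and a threshold of 0.05. The fit was checked on simulated data. The 10 genes and the lists were chosen with earlier results of these data known. Named genes are the 10, Skiv2l, Cd79a, markers of other cells, called genes of the 3 carrier lists and the 3 most abundant of each list, and the 3 nearest patterns of 3 genes. Slc7a7, Slc6a6, Slc25a18 and the carriers listed at 0 were added after their values were seen. Alternatives were another pseudocount, no filter, TPM, a pair of rescalings, omission of libraries and a block for the replicate number, with coverage added after seeing the data. P-values measure the spread between these mice. The level of 1 marker is not reported here.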

Additional observations from a re-analysis of the deposited data

How the results depend on the processing

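No transporter of the 10 reversed its sign under 14 alternatives, in which 119 of 127 log2 fold changes moved by less than the spread between replicates. The 8 others concern Slc7a3, Slc6a9 and Slc1a4, whose low control values make the scale matter, and Slc3a2. With a pseudocount of 0.1 FPKM the first 3 reached 3.79, 4.35 and 2.77. With TPM they were at 2.67, 2.68 and 2.21, with coverage Slc7a3 was at 1.52, and in 4 libraries without control 3 and Skiv2l-deleted 2 Slc3a2 was at 0.91. With no filter on low values, where more genes share the adjustment, 512 genes were called (280 higher, 232 lower) and 3 of the 10 transporters (3 higher, 0 lower). In the 4 libraries 4 of the 7 transporters tested were called (3 higher) and 2 genes of the other lists (2 higher). With coverage, 2 genes of the other lists were called (2 higher), Slc43a1 and Mfsd12. Slc6a9 then did not pass the filter.

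Leaving out 1 library at a time gave 179 to 1749 called genes (63 to 1020 higher, 113 to 729 lower), 0 to 6 of the 10 transporters (0 to 5 higher, 0 to 1 lower) and 0 to 1 gene of the other lists (0 to 1 higher, 0 lower). The 3 transporters below 1 FPKM in controls could not be tested once a Skiv2l-deleted library was left out. Same-numbered libraries did not deviate together (r = 0.0939, -0.428 and -0.355 across genes). The highest r, 0.557, joined Skiv2l-deleted 2 and control 3, each with the most myeloid signal of its group. Whether the numbers pair the mice cannot be told from these correlations, since other differences between libraries can hide a pairing. With the replicate block 365 genes were called (185 higher, 180 lower), 4 of the 10 transporters (4 higher, 0 lower) and 0 of the other lists (0 higher, with 5 at an unadjusted p under 0.05). For the block, the 4 libraries and coverage, the cause was not tested. Depth limits the values below 1 FPKM, for which no counts are held.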
